A study of Saccharomyces cerevisiae with 6 samples.

Results

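Cyclin genes were followed in 6 cultures of diploid budding yeast, 3 in the [ESI+] state and 3 naive. Of the 10 cyclin genes named for this description (PCL1, PCL2, CLG1, CLN1, CLN2, CLN3, CLB1, CLB2, CLB5 and CLB6), 3 are listed in the deposited tables, which hold 2850 genes in all. These 3 are PCL1, CLG1 and CLB1, matched by their systematic names, and the other 7 are not analysed here. The genes were chosen by their measured difference between ESI+ and naive cells in these same libraries, above all the fold changes of PCL1 and CLG1. Their levels and fold changes in that comparison are therefore given as a description, without a test.

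Both groups were the strain BY4743, a laboratory diploid of Saccharomyces cerevisiae that carries deletions in nutritional marker genes. [ESI+] cells carry a heritable, prion-like state, and naive cells do not. Every culture was harvested in YPD, a rich medium with glucose, at an optical density near 0.5, and polyadenylated RNA was sequenced. The labels number 3 biological replicates in each group, without saying whether the ESI+ cultures came from 1 isolate. The p-values below measure only the spread between these cultures.

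Cyclins are the regulatory subunits of cyclin-dependent kinases. In budding yeast the kinase Cdc28 pairs in turn with Cln cyclins in G1, with Clb5 and Clb6 in S phase and with Clb1 to Clb4 in mitosis, while a second kinase, Pho85, has a cyclin family of its own. PCL1 encodes a Pho85 cyclin of G1 that takes part in passing Start and in polarised growth. CLG1 encodes a cyclin-like partner of Pho85, and CLB1 encodes a mitotic cyclin of Cdc28 whose close relative is Clb2. Cultures in logarithmic growth hold cells at all stages of the cycle, so a level is an average over stages.

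PCL1 (YNL289W) lies on the plus strand of chromosome XIV, with an intronless coding span from 87897 to 88736 in build R64. CLG1 (YGL215W) and CLB1 (YGR108W) lie on the plus strand of chromosome VII, at 87981 to 89339 and 703636 to 705051, also without introns. No run of 31 bases, the word length that kallisto uses by default, was shared between these coding sequences and any other nuclear coding sequence of R64. That includes CLB2, which aligned to CLB1 over 855 bp at 72.7% identity. Untranslated regions were not compared.

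PCL1 is a textbook target of SBF, the Swi4 and Swi6 factor of the late G1 wave. The upstream stretch from 340 to 241 bases before the start codon is shown for each of the 3 genes, because it holds all PCL1 matches to the SBF motif. That motif, the SCB, was searched as CNCGAAA on both strands, and its matches are in capitals. The sequences are from the R64 reference, plus strand, 5′ to 3′, at chrXIV:87557-87656 for PCL1, chrVII:87641-87740 for CLG1 and chrVII:703296-703395 for CLB1.
PCL1: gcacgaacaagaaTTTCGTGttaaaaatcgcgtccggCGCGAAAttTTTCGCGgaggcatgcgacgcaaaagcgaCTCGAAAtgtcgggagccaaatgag
CLG1: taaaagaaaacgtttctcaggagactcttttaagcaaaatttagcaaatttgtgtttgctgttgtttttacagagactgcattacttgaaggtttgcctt
CLB1: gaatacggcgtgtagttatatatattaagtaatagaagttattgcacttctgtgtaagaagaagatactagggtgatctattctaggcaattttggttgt

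PCL1 held 4 SCB matches in the 600 bases before its start codon, and none of them overlapped another motif searched. Of the upstream windows of that length from 5999 nuclear protein-coding genes, 24.7% held at least 1 match and 10 windows (0.167%) held 4 or more. CLG1 and CLB1 had no match in the window. Among the cyclin genes whose transcripts are not analysed here, PCL2, CLN1 and CLN2 each held 2. The MCB motif of the MBF factor (ACGCGT), the forkhead motif GTAAACA, the Ste12 motif TGAAACA and the Pho4 motif CACGTG had no match upstream of PCL1, CLG1 or CLB1. A match describes letters in a window and not binding.

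The 6 libraries differed in depth and composition. Total estimated counts were 316485 to 3896490 in ESI+ libraries and 1080941 to 5934048 in naive libraries, each over the listed genes. Pairs of ESI+ libraries had a Pearson correlation of log2 CPM of 0.592 to 0.741 and pairs of naive libraries one of 0.926 to 0.952, while pairs of an ESI+ and a naive library had 0.614 to 0.908, computed over genes, which do not count as replicates. A length-proportional background was taken in each library as the 5th percentile of counts per kb over genes. It was 32.9, 298.8 and 2.03 counts per kb in ESI+ replicates 1 to 3, and 42.2, 7.27 and 55.4 in naive replicates 1 to 3. ESI+ replicate 2 thus had the highest background. URA3, which is deleted in this strain, stood at 17.8, 26.3 and 333 normalised CPM in ESI+ replicates 1 to 3, and 32.3, 20.4 and 255 in naive replicates 1 to 3. Both replicates numbered 3 go against the strain label in this respect, and the fold changes of the cyclin genes are also given without them. Of the genes repressed in a/alpha diploids, MFA1 had 0 to 86 counts, MFA2 0 to 66, AGA2 1 to 96 and STE4 17 to 739 in the 6 libraries. The highest count of each was in ESI+ replicate 2, while AGA2 per library size was highest in ESI+ replicate 3, at 117 CPM before scaling. Against the background, MFA1 and STE4 stood at 1.02 and 1.69 times in ESI+ replicate 2. They stood at 10.5 and 5.72 times in ESI+ replicate 3, on 6 and 17 counts. HIS3, which is partly deleted in this strain, had 33.5, 129 and 572 CPM before scaling in ESI+ replicates 1 to 3. In naive replicates 1 to 3 it had 26.6, 22.2 and 39.1. MET17 had 103, 94.4 and 281 in ESI+ replicates 1 to 3, and 88.3, 41.6 and 42.5 in naive replicates 1 to 3. Both were highest in ESI+ replicate 3, a library whose URA3 level goes against the strain label.

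PCL1, the G1 cyclin gene of Pho85, was higher in ESI+ than in naive libraries. Its normalised CPM, which are counts relative to library sizes scaled by the TMM method, were 12.4, 130.3 and 22.5 in ESI+ replicates 1 to 3, against 5.39, 5.43 and 5.23 in naive replicates 1 to 3. All ESI+ values lay above all naive values, and ESI+ replicate 2 lay far above the other ESI+ libraries. The naive libraries differed by 1.04-fold between the highest and the lowest, while the ESI+ libraries differed by 10.5-fold. The values rest on 23, 984 and 9 counts in the ESI+ libraries and on 19, 4 and 24 counts in the naive libraries. The exact 95% Poisson interval was 4.12 to 17.1 counts in ESI+ replicate 3 and 1.09 to 10.2 counts in naive replicate 2, for counting error only. PCL1 averaged 55.1 ± 65.3 normalised CPM in ESI+ cells and 5.35 ± 0.11 in naive cells (SD, n = 3 each). The fitted log2 fold change of PCL1, ESI+ over naive, was 3.41 (SE 0.83), 1.61 (SE 0.78) without ESI+ replicate 2 and 3.73 (SE 0.79) without both replicates 3.

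**Figure D1:**
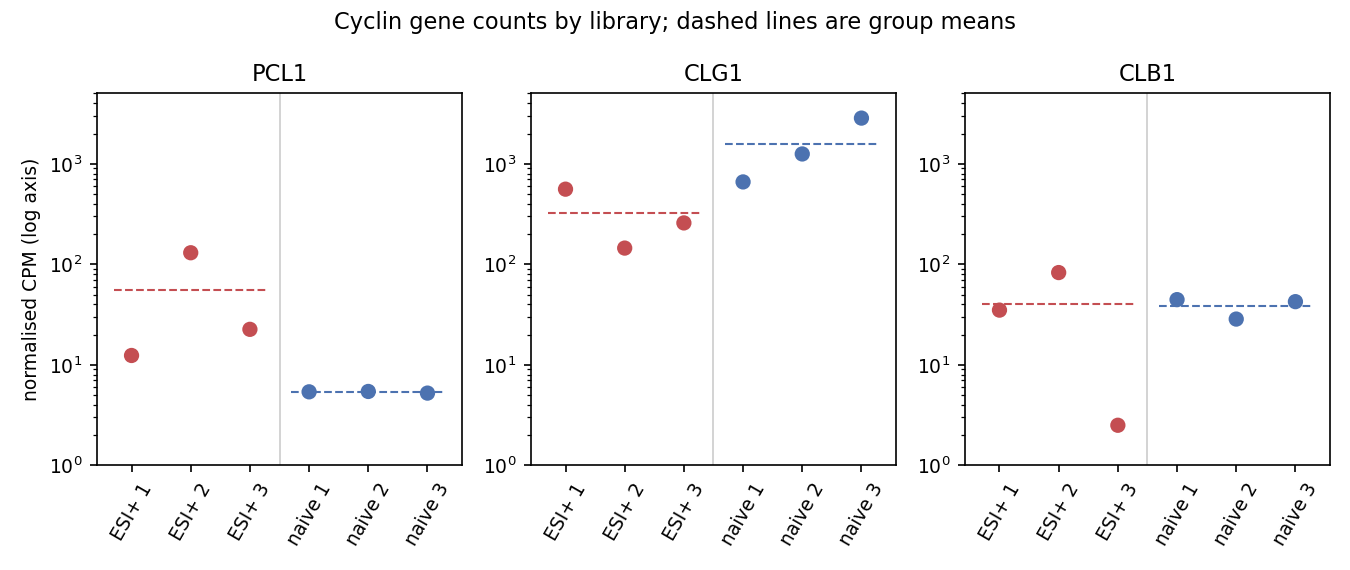
Normalised CPM of PCL1, CLG1 and CLB1 in each library on a log axis, with ESI+ libraries in red, naive libraries in blue and the group means as dashed lines. PCL1 lay at 12.4 to 130.3 in ESI+ libraries and at 5.23 to 5.43 in naive libraries, CLG1 was lower in every ESI+ library than in any naive library, and the CLB1 groups overlapped.

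Measured against the background of each library, PCL1 was near the bottom of the range in most of them. Its count was 0.665, 3.13 and 4.22 times the length-proportional background in ESI+ replicates 1 to 3, against 0.428, 0.523 and 0.412 times in naive replicates 1 to 3. PCL1 thus stood above the background in ESI+ replicates 2 and 3 and below it in ESI+ replicate 1 and in every naive library. The median ratio over all listed genes was 4.12, 2.24 and 14.7 in ESI+ replicates 1 to 3. It was 6.63, 7.84 and 6.41 in naive replicates 1 to 3, so ratios are not on 1 scale between libraries. In ESI+ replicate 3 PCL1 had 9 counts against a background of 2.13. Its TPM exceeded that of 1.68%, 71.9% and 16.5% of the listed genes in ESI+ replicates 1 to 3, and of 0.702%, 1.93% and 1.02% in naive replicates 1 to 3. In all, 75 genes including PCL1 had counts under this background in all 3 naive libraries, a choice that by itself favours higher ratios in other libraries. In ESI+ replicate 2 these genes had a median ratio of 1.56, and PCL1 ranked 4 of 75 from the top. In ESI+ replicates 1 and 3 it ranked 56 and 41 of 75, where the medians were 0.95 and 4.89. The part of the background in the PCL1 difference was not tested, because PCL1 no longer passed the filter on low counts once that background was subtracted.

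**Figure D2:**
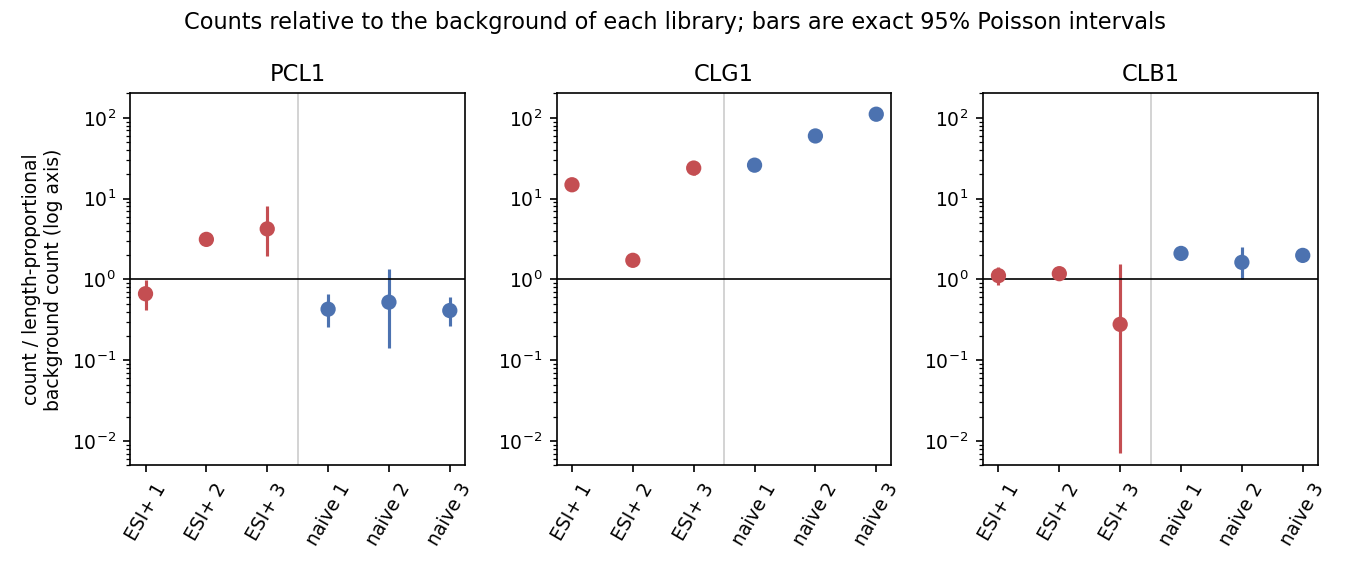
Count of each cyclin gene divided by the length-proportional background count of its library, on a log axis, with exact 95% Poisson intervals of the count as bars and the background as the line at 1. PCL1 was above 1 in ESI+ replicates 2 and 3 only, CLG1 was above 1 in all 6 libraries, and CLB1 was at 0.278 to 1.18 in ESI+ libraries and 1.63 to 2.10 in naive libraries.

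CLG1, the cyclin-like Pho85 partner, had the opposite pattern, at a much higher level than PCL1 in every library but ESI+ replicate 2. It had 559, 145 and 258 normalised CPM in ESI+ replicates 1 to 3, against 659.7, 1252 and 2846 in naive replicates 1 to 3. All ESI+ values lay below all naive values, with ESI+ replicate 1 close to naive replicate 1, and naive replicate 3 was the highest of all. The counts behind them were 1038, 1095 and 103 in the ESI+ libraries and 2327, 922 and 13059 in the naive libraries. CLG1 averaged 321 ± 214 normalised CPM in ESI+ cells and 1586 ± 1131 in naive cells (SD, n = 3 each). The spread within a group was 3.86-fold among ESI+ libraries and 4.31-fold among naive libraries. The log2 fold change of CLG1 was -2.31 (SE 0.73), -1.51 (SE 0.76) without naive replicate 3, and -1.44 (SE 0.96) without both replicates 3. Without ESI+ replicate 2 it was -1.95 (SE 0.69). On the log2(TPM + 1) scale in limma it was -1.48 (SE 0.62), where the median of all genes was 0.64.

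The gap between CLG1 in ESI+ replicate 1 and in naive replicate 1 depended on the scaling of the libraries. Before scaling, CLG1 had 536 CPM in ESI+ replicate 1 and 534 CPM in naive replicate 1. The TMM factors were 0.959 for ESI+ replicate 1 and 0.809 for naive replicate 1, and they were 1.94 and 1.26 for ESI+ replicates 2 and 3. CLG1 counts were 14.8, 1.72 and 23.9 times the background in ESI+ replicates 1 to 3, against 25.9, 59.6 and 111 times in naive replicates 1 to 3. The low ratio in ESI+ replicate 2 stands beside the high background there. With the background subtracted in every library, the log2 fold change of CLG1 was -2.26 (SE 0.74).

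CLB1, the mitotic cyclin gene, had no common direction. It had 35.0, 82.7 and 2.50 normalised CPM in ESI+ replicates 1 to 3, against 44.5, 28.5 and 42.5 in naive replicates 1 to 3. The groups overlapped, and the ESI+ libraries held both the highest and the lowest value of the 6. CLB1 had 65, 625 and 1 counts in the ESI+ libraries and 157, 21 and 195 in the naive libraries. The single count in ESI+ replicate 3 has an exact 95% Poisson interval of 0.025 to 5.57 counts. CLB1 averaged 40.1 ± 40.4 normalised CPM in ESI+ cells and 38.5 ± 8.71 in naive cells (SD, n = 3 each). The log2 fold change of CLB1 was 0.13 (SE 0.69). It was -0.83 (SE 0.71) without ESI+ replicate 2 and 0.60 (SE 0.55) without ESI+ replicate 3, so its sign depended on the library left out. Without both replicates 3 it was 0.68 (SE 0.65). Against the background, CLB1 counts were 1.11, 1.18 and 0.278 times in ESI+ replicates 1 to 3, and 2.10, 1.63 and 1.98 times in naive replicates 1 to 3. URA3, which is deleted in this strain, stood at 1.10, 0.727 and 71.6 times in ESI+ replicates 1 to 3. In naive replicates 1 to 3 it stood at 2.95, 2.25 and 23.0 times. Both replicates numbered 3 go against the strain label for URA3, so their ratios do not bear on the background. Where the label holds, the 1.10, 2.95 and 2.25 times in ESI+ replicate 1 and naive replicates 1 and 2 came without the gene. A ratio a little above 1 thus does not by itself show that a gene was expressed.

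Of the 3 cyclin genes, 1 was among the genes called in the edgeR fit across 2844 tested genes (adjusted p under 0.05), which was PCL1 on the higher side. The fit called 6.26% of all tested genes, 5.27% higher and 0.985% lower. The share of tested genes whose ESI+ values all lay above their naive values, as for PCL1, was 15.2%, and the share with all ESI+ values below, as for CLG1, was 14.6%. Since the comparison was known when the genes were proposed, nothing is read from this count.

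**Figure D3:**
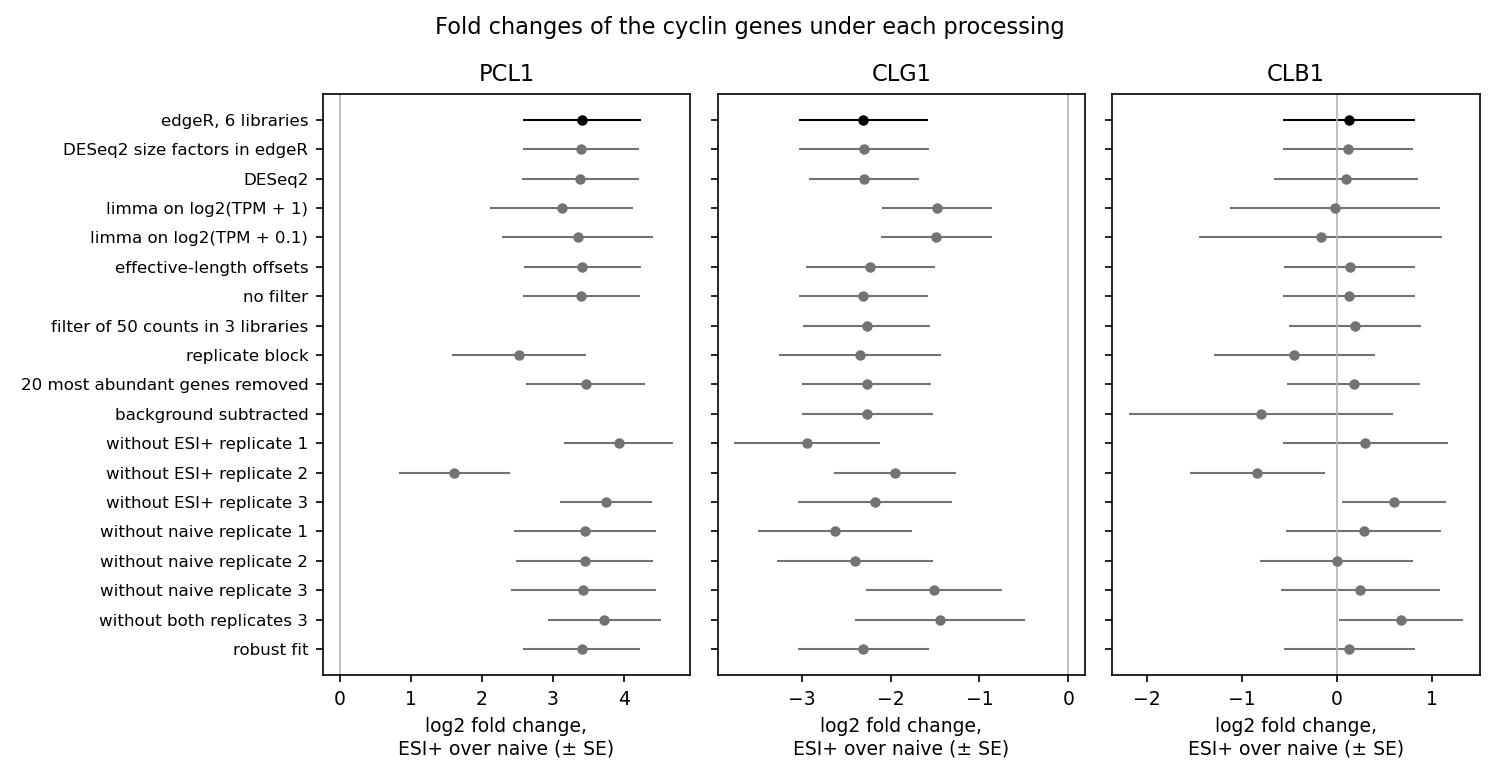
Log2 fold change of each cyclin gene, ESI+ over naive, with its SE under each processing alternative and with each library left out, where a missing point means that the gene was not tested. PCL1 stayed positive at 1.61 to 3.93 and CLG1 negative at -2.94 to -1.44 in the alternatives that gave a value, and CLB1 lay on both sides of 0.

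Levels were compared between the genes per length, as TPM. In every naive library the order was CLG1, CLB1, PCL1, with 240.0 to 934 TPM for CLG1, 10.1 to 19.8 for CLB1 and 3.75 to 4.47 for PCL1, and these ranges did not overlap. ESI+ replicate 1 had the same order, with 229 TPM for CLG1, 17.2 for CLB1 and 11.4 for PCL1. In ESI+ replicate 2 PCL1 came first, with 269 TPM, ahead of CLG1 with 129 and CLB1 with 87.2. In ESI+ replicate 3 the order was CLG1, PCL1, CLB1, with 125, 25.4 and 1.53 TPM. Over the ESI+ libraries the range of PCL1 overlapped those of CLG1 and CLB1, so neighbours in the order did not differ beyond their spread there.

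A ratio of TPM within a library does not depend on the scaling between libraries. The TPM ratio of CLG1 to PCL1 was 20.1, 0.48 and 4.94 in ESI+ replicates 1 to 3, against 53.7, 96.5 and 226 in naive replicates 1 to 3. Every ESI+ ratio lay below every naive ratio. The TPM ratio of CLB1 to PCL1 was 1.51, 0.324 and 0.060 in ESI+ replicates 1 to 3, against 4.43, 2.70 and 4.16 in naive replicates 1 to 3, and these groups did not overlap either. The TPM ratio of CLG1 to CLB1 was 13.3, 1.48 and 81.8 in ESI+ libraries, against 12.1, 35.7 and 54.3 in naive libraries, with overlap. PCL1 and CLG1 were chosen by their differences in these same libraries, which by itself favours ratios that separate the groups. Nothing is therefore read from the separation. The background of each library enters these ratios too.

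The files split PCL1 and CLB1 over several transcript isoforms. PCL1 has 5 listed isoforms of 1041 to 1064 nt, CLB1 has 4 of 1734 to 1835 nt, and CLG1 has 1 of 2127 nt. For PCL1, the 1059 nt isoform took 59.3% of the estimated counts in ESI+ replicate 1 and 62.7% in ESI+ replicate 2, with most of the rest on the 1052 nt isoform. In ESI+ replicate 3 and in naive replicates 2 and 3 nearly all PCL1 counts went to the 1041 nt isoform, and in naive replicate 1 to the 1046 nt isoform. The ESI+ libraries thus did not share one pattern.

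For CLB1, the longest isoform (1835 nt) took 43.4% of the estimated counts in ESI+ replicate 1 and 100% in ESI+ replicate 2, and the single count of ESI+ replicate 3 went to the shortest (1734 nt). In all 3 naive libraries 100% went to the 1777 nt isoform. Longer isoforms were also favoured over all genes in the same libraries. Over genes with several isoforms and at least 20 counts, the median relative isoform length, on a scale of 0 for the shortest and 100 for the longest isoform of a gene, was 72.4%, 100% and 10.8% in ESI+ replicates 1 to 3, against 41.4%, 24.2% and 36.2% in naive replicates 1 to 3. The part of this library-wide difference in the isoforms of PCL1 and CLB1 was not tested. With 3 libraries against 3, an exact two-sided permutation test cannot go below p = 0.1, and none was run on isoform lengths.

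**Figure D4:**
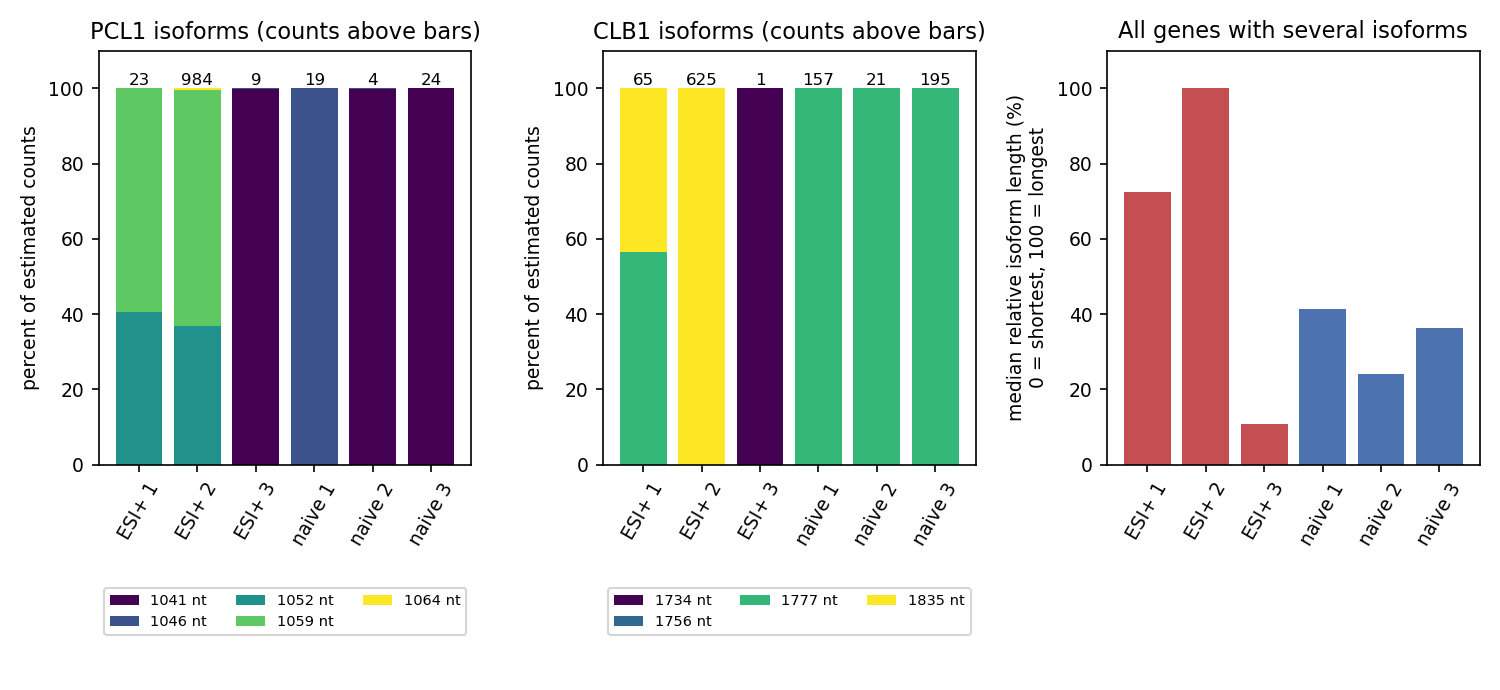
Left and middle, percent of the estimated counts of PCL1 and CLB1 assigned to each listed isoform in each library, with the total counts above the bars. Right, median relative isoform length over all genes with several isoforms, where ESI+ replicates 1 and 2 had 72.4% and 100% and the naive libraries 24.2% to 41.4%.

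The genes next to the cyclin genes on the chromosome were also read. RFC3, which encodes a subunit of the clamp loader of DNA replication, ends 656 bp before PCL1 on the same strand and had a log2 fold change of 0.53 (SE 0.59, adjusted p = 0.597 in edgeR), or -0.30 without ESI+ replicate 2. CAF40, a gene of the Ccr4-Not complex that starts 1566 bp after PCL1 on the same strand, had 0.25 (SE 0.53, adjusted p = 0.792), and -0.45 with ESI+ replicate 2 left out. KIP3, a kinesin gene that ends 678 bp before CLG1 on the same strand, was higher in ESI+ cells. Its log2 fold change was 2.58 (SE 0.56, adjusted p = 0.0105 in edgeR). Without ESI+ replicate 2 it was 2.16, and KIP3 was not called (adjusted p = 0.0951), in a fit that called 1 of 2841 genes. With the background subtracted in every library it was 10.9 (SE 1.89, adjusted p = 0.0957), where 0 genes were called in the whole table. Subtraction can leave counts near 0, so 10.9 is not read as the size of the difference. SKI8, which lies 714 bp after CLG1 on the opposite strand and acts in cytoplasmic RNA decay, had -0.81 (SE 0.50, adjusted p = 0.306), and its value was 0.095 with naive replicate 3 left out. VOA1, an assembly factor gene of the vacuolar ATPase that lies 3849 bp before CLB1 on the opposite strand, had -0.77 (SE 0.56, adjusted p = 0.392). CLB6, 307 bp after CLB1 on the opposite strand, is not analysed here.

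The tested genes whose pattern over the 6 libraries came closest to that of PCL1 were VAC17, AVT2 and KAR9. Likeness was measured as the root mean square difference of centred log2 CPM, among 827 genes of similar mean level. It was 0.36, 0.38 and 0.40 for these 3, against a median of 1.34 over the 827 genes. VAC17, which tethers vacuoles to a myosin motor, had 46.8, 252 and 55.1 normalised CPM in ESI+ replicates 1 to 3 and 20.1, 19.0 and 22.2 in naive replicates 1 to 3. As for PCL1, ESI+ replicate 2 was highest. Closest to CLG1 among 907 genes were LAT1 (0.32), a subunit gene of pyruvate dehydrogenase, the elongation factor gene TEF4 (0.34) and the 14-3-3 gene BMH1 (0.39), against a median of 1.18. LAT1 had 689, 204 and 248 normalised CPM in ESI+ replicates 1 to 3 and 724, 1291 and 1961 in naive replicates 1 to 3.

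Other genes of the cyclin pathways were taken from 8 lists of regulators, targets and relatives. Of the 137 distinct genes on these lists, 59 are listed in the files, and all 59 were tested in the edgeR fit. 5 of them were called higher in ESI+ cells and 0 lower, against 5.27% and 0.985% of all tested genes. At an unadjusted p under 0.05, 14 were higher and 5 lower, against 15.2% and 10.2% of all tested genes. DESeq2 called 9 higher and 1 lower, against 8.49% and 5.12% of all genes. The 5 called genes were STB1, SRC1, ACM1, MCM6 and DSE4. The median log2 fold change of the 59 genes was 0.21, beside 0.07 over all tested genes, and without ESI+ replicate 2 these were -0.02 and -0.04. Without ESI+ replicate 2 none of the 59 was called by edgeR, in a fit that called 1 of 2841 genes. Of the 178 genes called with all 6 libraries, 1 was called there, so calls were lost across the whole table. In that fit 6 were higher and 5 lower by an unadjusted p under 0.05, against 11.2% and 8.8% of all genes. None of the 59 was called without naive replicate 3 either, where 46 of 2849 genes were called higher and 2 lower. There 14 were higher and 2 lower by the unadjusted limit, against 13.1% and 6.04% of all genes. Without both replicates 3 there were 6 called higher and 0 lower, with FKH1 and MCM7 added and SRC1 lost. That fit called 183 of 2848 tested genes higher and 6 lower. The number of list genes called higher was also 2 and 1 without naive replicates 1 and 2, beside 72 and 64 of 2849 tested genes. It was 11 without ESI+ replicate 1 and 11 without ESI+ replicate 3, beside 247 of 2847 and 327 of 2849 tested genes.

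**Figure D5:**
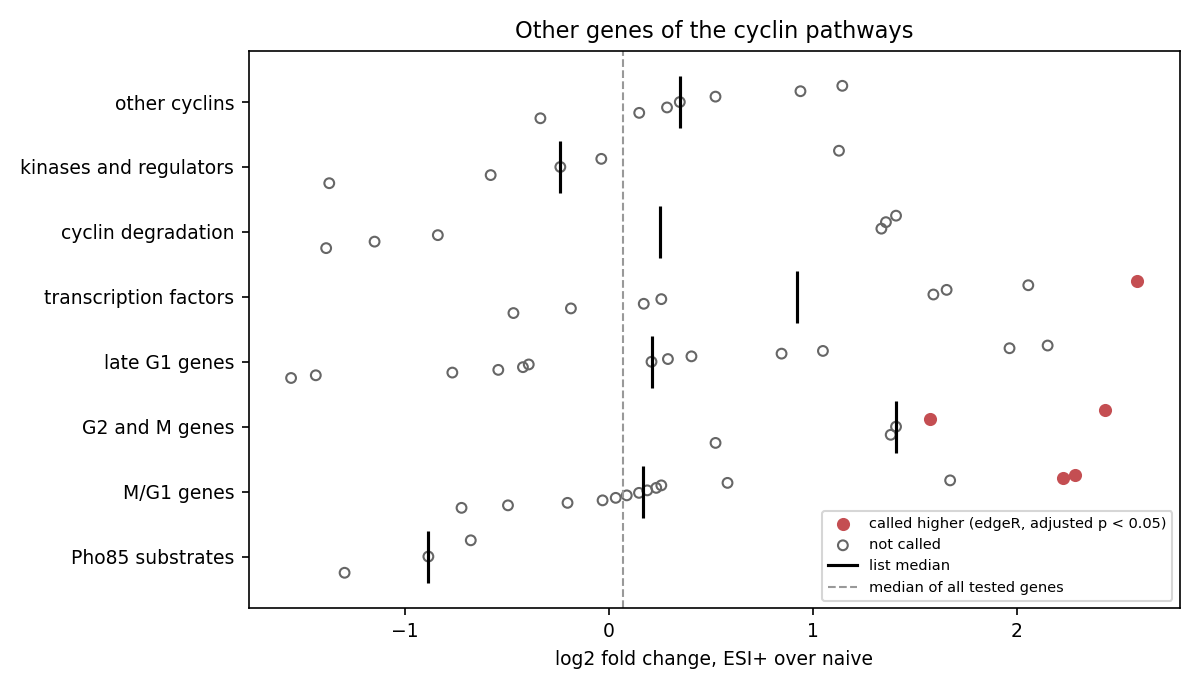
Log2 fold change, ESI+ over naive, of each tested gene on the 8 lists, with genes called higher by edgeR as filled points, list medians as black ticks and the median of all tested genes (0.07) as the dashed line. The called genes were STB1 among transcription factors, SRC1 and ACM1 among G2 and M genes, and MCM6 and DSE4 among M/G1 genes.

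Among 7 other cyclin genes in the files, 0 were called by edgeR or by DESeq2 in either direction, and 0 reached an unadjusted p under 0.05. Their median log2 fold change was 0.35, with a range of -0.33 to 1.15, and -0.003 without ESI+ replicate 2. The mitotic cyclin genes CLB3 and CLB4 had 0.52 (SE 0.54, adjusted p = 0.564 in edgeR) and 0.94 (SE 0.75, adjusted p = 0.433). PCL10, a Pho85 cyclin of glycogen metabolism, had 1.15 (SE 0.67, adjusted p = 0.287), and 0.19 with ESI+ replicate 2 left out. BUR2, the cyclin of the Sgv1 kinase of transcription, had -0.33 (SE 0.62, adjusted p = 0.763). The difference between these genes and PCL1 was not tested.

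The kinase partners of the cyclins did not pass the test. CDC28 had 43.1, 54.4 and 0 normalised CPM in ESI+ replicates 1 to 3, against 47.1, 33.9 and 73.7 in naive replicates 1 to 3. The absence of counts in ESI+ replicate 3 allows up to 3 counts, or 9.48 CPM before scaling, there. The log2 fold change of CDC28 was -0.58 (SE 0.72, adjusted p = 0.640 in edgeR), and the sign turned without both replicates 3. PHO85 had 88.3, 90.4 and 103 normalised CPM in ESI+ replicates 1 to 3, against 85.6, 109 and 136 in naive replicates 1 to 3, with a log2 fold change of -0.24 (SE 0.45, adjusted p = 0.770). The groups overlapped for both kinases. Of the 5 kinase and regulator genes, 0 were called by edgeR or DESeq2 and 1 had an unadjusted p under 0.05, the chaperone gene YDJ1 (log2 fold change -1.37, SE 0.58, adjusted p = 0.137). CTK1, the catalytic subunit gene of a kinase that phosphorylates RNA polymerase II, had 1.13 (SE 0.60, adjusted p = 0.237), and 0.25 with ESI+ replicate 2 left out.

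Of 6 genes that act in cyclin degradation, 0 were called by edgeR or DESeq2, while 2 were higher and 2 lower at an unadjusted p under 0.05, a limit that 15.2% and 10.2% of all tested genes passed. CDC4, the F-box gene of the ubiquitin ligase that targets Sic1, had a log2 fold change of 1.36 (SE 0.48, adjusted p = 0.0768 in edgeR). CDC20, the mitotic activator of the anaphase-promoting complex, had 1.41 (SE 0.58, adjusted p = 0.126). SKP1 and CDC34, which encode the adaptor and the ubiquitin-conjugating enzyme of the same ligase as CDC4, had -1.15 (SE 0.44, adjusted p = 0.104) and -1.38 (SE 0.54, adjusted p = 0.108).

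The transcription factor list, which holds regulators of cyclin genes, had 1 of 8 tested genes called higher and 0 lower. Of all tested genes, 5.27% were called higher and 0.985% lower. The list had a median log2 fold change of 0.92, or 0.37 without ESI+ replicate 2. The called gene was STB1, which encodes a Swi6-binding protein of the G1/S factors. STB1 had 29.1, 160 and 55.1 normalised CPM in ESI+ replicates 1 to 3, against 11.3, 10.9 and 18.1 in naive replicates 1 to 3. All ESI+ values lay above all naive values, as for 15.2% of all tested genes. As for PCL1, ESI+ replicate 2 was highest for STB1. Its log2 fold change was 2.59 (SE 0.66, adjusted p = 0.0260 in edgeR), and 1.56 (adjusted p = 0.185) without ESI+ replicate 2. STB1 counts were 1.11, 2.73 and 7.34 times the background in ESI+ replicates 1 to 3, against 0.64, 0.74 and 1.01 times in naive replicates 1 to 3. YHP1, a repressor of early cell cycle genes, had 2.06 (SE 0.74, adjusted p = 0.0839), and NRM1, the MBF corepressor, had 1.66 (SE 0.67, adjusted p = 0.120). FKH1, a forkhead factor gene of G2 and M phase, had 1.59 (SE 0.66, adjusted p = 0.129), and 0.33 with ESI+ replicate 2 left out. SWI6, the shared subunit of SBF and MBF, had -0.47 (SE 0.51, adjusted p = 0.594).

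Of 13 genes of the late G1 wave, to which PCL1 itself belongs, 0 were called by edgeR, with 2 higher and 2 lower at an unadjusted p under 0.05, and DESeq2 called 2 higher and 1 lower. Their median log2 fold change was 0.21, and it turned to -0.40 without ESI+ replicate 2. The shares of all genes at these limits are those given for the 59 genes. The histone chaperone gene ASF1 had 2.15 (SE 0.68, adjusted p = 0.0552 in edgeR) and GIC1, a Cdc42 effector gene, had 1.96 (SE 0.64, adjusted p = 0.0596). On the other side, the cell wall transglycosylase gene CRH1 had -1.56 (SE 0.49, adjusted p = 0.0529) and GIC2, the paralogue of GIC1, had -1.44 (SE 0.57, adjusted p = 0.118). With a robust estimate of the spread, ASF1 and CRH1 were called (adjusted p = 0.0491 and 0.0441).

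Of 5 tested genes of the CLB2 cluster of G2 and M phase, 2 were called higher and 0 lower. Of all tested genes, 5.27% were called higher and 0.985% lower. The fold changes of all 5 cluster genes were positive, as for 1490 of the 2844 tested genes. The median log2 fold change of the 5 was 1.41, or 1.08 without ESI+ replicate 2. SRC1, an inner nuclear membrane protein gene, had 148, 355 and 238 normalised CPM in ESI+ replicates 1 to 3, against 85.6, 89.6 and 74.5 in naive replicates 1 to 3. Its log2 fold change was 1.57 (SE 0.46, adjusted p = 0.0433 in edgeR). ACM1, an inhibitor of the anaphase-promoting complex activator Cdh1, had 18.3, 99.1 and 42.6 normalised CPM in ESI+ replicates 1 to 3, against 15.0, 6.79 and 7.41 in naive replicates 1 to 3. Its log2 fold change was 2.43 (SE 0.73, adjusted p = 0.0481). For both genes all ESI+ values lay above all naive values, as for 15.2% of all tested genes. ESI+ replicate 1 was close to naive replicate 1 for ACM1. In ESI+ replicates 1 to 3, ACM1 counts were 1.48, 3.58 and 12.0 times the background, and SRC1 counts 2.90, 3.13 and 16.3 times. In naive replicates 1 to 3 they were 1.79, 0.981 and 0.876 times for ACM1 and 2.49, 3.16 and 2.15 times for SRC1. Without ESI+ replicate 2 neither was called (adjusted p = 0.150 for SRC1 and 0.261 for ACM1), and SRC1 was not called without both replicates 3 (adjusted p = 0.102). MOB1, a gene of the mitotic exit network, had 1.38 (SE 0.62, adjusted p = 0.163).

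Of 14 tested genes of the M/G1 boundary, 2 were called higher and 0 lower, against 5.27% and 0.985% of all tested genes. The median log2 fold change of the 14 genes was 0.17, or 0.27 without ESI+ replicate 2. MCM6, a subunit gene of the replicative helicase, had 85.1, 233 and 198 normalised CPM in ESI+ replicates 1 to 3, against 30.3, 43.4 and 37.3 in naive replicates 1 to 3. Its log2 fold change was 2.22 (SE 0.50, adjusted p = 0.0132 in edgeR), and 1.92 (adjusted p = 0.0967) without ESI+ replicate 2. With the background subtracted in every library it was 5.85 (SE 1.81, adjusted p = 0.151), where 0 genes were called in the whole table. Subtraction can leave counts near 0, so 5.85 is not read as the size of the difference. DSE4, a daughter cell glucanase gene, had 148, 620.3 and 496 normalised CPM in ESI+ replicates 1 to 3, against 118, 62.5 and 77.4 in naive replicates 1 to 3, with a log2 fold change of 2.28 (SE 0.54, adjusted p = 0.0168). Without ESI+ replicate 2 it had 1.88 (adjusted p = 0.135). For both genes all ESI+ values lay above all naive values, as for 15.2% of all tested genes. In ESI+ replicates 1 to 3, MCM6 counts were 1.45, 1.78 and 11.8 times the background, and DSE4 counts 2.37, 4.46 and 27.8 times. In naive replicates 1 to 3 they were 0.768, 1.33 and 0.934 times for MCM6 and 2.80, 1.80 and 1.82 times for DSE4. MCM7, a further helicase subunit gene, had 1.67 (SE 0.56, adjusted p = 0.0640) and 0.84 with ESI+ replicate 2 left out, and the cell wall protein gene PST1 had -0.72 (SE 0.53, adjusted p = 0.393).

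Substrates of Pho85, the kinase that Pcl1 and Clg1 bind, were represented by 3 genes, of which 0 were called by edgeR or DESeq2 and 0 had an unadjusted p under 0.05. Their fold changes were negative, with a median of -0.88, while 1490 of the 2844 tested genes had positive ones. These are RNA levels, which do not measure the action of the kinase on the proteins. GCN4, the activator of amino acid synthesis genes, had -1.29 (SE 0.70, adjusted p = 0.246 in edgeR), the amphiphysin-like gene RVS167 -0.88 (SE 0.45, adjusted p = 0.214) and the glycogen synthase gene GSY2 -0.68 (SE 0.68, adjusted p = 0.557).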

How the data were processed

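Polyadenylated RNA of 3 ESI+ and 3 naive cultures was sequenced in paired ends, per the labels' protocols. Per the submitters' processing notes the authors used kallisto 0.43.1 and build R64. Which options kallisto ran with, and where its isoforms came from, is not given in the sources used here. The deposited tables hold estimated counts and TPM values, which the authors' tool scaled for length, for 17906 isoforms of 2850 genes, of which 2849 matched the R64 reference table. For each gene the estimated counts of its isoforms were added up and rounded. Genes were filtered with edgeR's default (minimum count 10), libraries scaled by TMM, and the groups tested with the quasi-likelihood F test of edgeR 4.0.16 in R 4.3.3 (two-sided, Benjamini-Hochberg over 2844 genes, threshold 0.05). The SE is the absolute fold change divided by the square root of F. Data of 2844 genes in all were simulated from the real means. There the share called was 8% of genes with a 2-fold change, 57% with a 4-fold change and 0.038% with no change. These shares describe the simulated data only. Whether they hold for the real libraries, which differed in background and composition, was not tested.

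Alternatives were DESeq2 1.42.0, its size factors in edgeR, limma 3.58.1 on log2(TPM + 1) and log2(TPM + 0.1), effective-length offsets, other filters, a replicate block, removal of the 20 most abundant genes, background subtraction and leaving out each library. A robust fit and leaving out both replicates 3 were added after seeing the data. The genes and lists were chosen with earlier results of these data known. The rule for named genes took PCL1, CLG1 and CLB1, called genes of each list and the smallest p-values to at most 4 a list, and the 3 genes most like PCL1 and CLG1. SWI6 and the chromosomal neighbours were named outside it, after their values were seen.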

Additional observations from a re-analysis of the deposited data

How the results depend on the processing

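PCL1 had log2 fold changes of 1.61 to 3.93 and CLG1 of -2.94 to -1.44 in every alternative that gave a value, and CLB1 had -0.83 to 0.68. PCL1 was not tested with the filter of 50 counts in 3 libraries or after background subtraction. Genes called higher and lower over the whole table numbered 150 and 28. With DESeq2 these were 242 and 146. Limma on log2(TPM + 1) called 0 and 0 (628 and 27 at an unadjusted p under 0.05), as did limma on log2(TPM + 0.1) (618 and 30), and edgeR after background subtraction called 0 and 0 (351 and 182). The robust fit called 178 and 47, and leaving out both replicates 3 gave 183 and 6. Leaving out single libraries gave 1 to 327 higher and 0 to 85 lower, with 1 and 0 without ESI+ replicate 2 (318 and 250 at an unadjusted p under 0.05). Of the genes on the cell cycle lists, 5 were called higher and 0 lower. DESeq2 called 9 and 1, limma on either scale and background subtraction 0 higher, the robust fit 6 and 1, and the fit without the 20 most abundant genes 6 and 1. Leaving out single libraries gave 0 to 11 higher and 0 to 1 lower. Limma and background subtraction left 16 and 8 of these genes higher at an unadjusted p under 0.05.

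With the replicate block 68 genes were higher and 20 lower, 2 genes on the cell cycle lists were called higher and PCL1 had a log2 fold change of 2.52. CAF40 turned to -0.029 there. Same-numbered libraries deviated from their group means with correlations of -0.064, -0.21 and -0.041, and the other pairs with -0.090 to 0.17. With only 3 libraries behind each mean, these values cannot settle whether the numbers pair the samples. The sign of CDC28 turned to 0.25 without both replicates 3. PHO85 turned to 0.55 and 0.56 in limma on log2(TPM + 1) and log2(TPM + 0.1), where the median of all genes was 0.64 and 0.65, and ranged from -0.34 to 0.0068 with single libraries left out, the positive value being without naive replicate 3. BUR2 turned to 0.26 and 0.25 in the same limma fits and to 0.012 without both replicates 3, and CLB4 ranged from -0.0031, without ESI+ replicate 2, to 1.33 with single libraries left out. SWI6 turned to 0.22 in both limma fits, and SKI8 to 0.24 in both and to 0.035 without both replicates 3. With single libraries left out, SKI8 ranged from -1.05 to 0.095 RFC3 from -0.30 to 0.93 and CAF40 from -0.45 to 0.63. The cause of these changes was not tested. Depth limits the values of PCL1, CLB1 and CDC28, which had 9, 1 and 0 counts in the shallowest library, and PCL1 had 4 in naive replicate 2.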
